A study of Mus musculus with 13 samples.

Results

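The regions described here were the distal ESR1-bound sites that held a peak whatever the treatment. ChIP-Seq for ESR1, the estrogen receptor alpha, was done on primary fibroblasts of the lower abdominal muscle (LAM), and each of 12 libraries had a peak list. The 12 lists were merged wherever peaks overlapped by at least 1 bp, which gave 228284 regions. A region was kept when it had a peak in all 10 libraries other than E2 replicate 1 and fulvestrant replicate 2, and when its strongest summit (the highest −log10 q-value of any library) lay over 3 kb from every transcription start site (TSS) of the GENCODE vM21 basic set. This left 4797 regions, 2.1% of all merged regions, and 7232 further regions present in the same 10 libraries had a summit within 3 kb of a TSS. The lists also held peaks with q above 0.05: 73.9% to 94.4% of the peaks in each of the 10 libraries had q of at most 0.05. With only those peaks, 3686 distal regions met the rule. The members were thus selected on measured values, their presence in 10 lists and the position of the strongest peak, so presence and distance from a TSS are the rule and not findings.

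The fibroblasts came from Aromhum mice, in which human aromatase, the enzyme that converts testosterone to estradiol, is expressed from a transgene, so all cultures shared this transgene and its hormonal background. Cells were passaged once, starved in serum-free medium, pretreated for 3 h with 100 nM fulvestrant or its solvent, and harvested 1 h after 10 nM estradiol (E2) or its solvent. The groups were vehicle (ethanol and DMSO), E2, E2 plus fulvestrant, and fulvestrant alone, with 3 libraries each. Neither the animals' age nor separate animals or cultures for the replicates were stated in the sources used here, so p-values measure the spread between these libraries, which may be technical. Of the 10 libraries used by the rule, 5 had been given E2 (E2 replicates 2 and 3 and the 3 E2 plus fulvestrant libraries) and 5 had not (the 3 vehicle libraries and fulvestrant replicates 1 and 3).

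ESR1 is a nuclear receptor. On binding E2 it dimerizes and attaches to estrogen response elements (EREs), palindromes of a pair of inverted arms, and it can also be held on chromatin through other factors such as AP-1, the dimer of Fos and Jun proteins. Most ERE-bound receptor lies far from promoters, in enhancers. Fulvestrant competes with E2 for the receptor and promotes its degradation.

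The EREs of the strongest and of the most E2-shifted regions are shown first, because results below turn on them. An ERE was GGTCA, any 3 bases, TGACC, with at most 1 mismatch in the arms, within 100 bp of the strongest summit on either strand. Each line gives the ERE in capitals with 15 bases on each side, on the plus strand of mm10, at the coordinates in its name.

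Gm33201 region, chr6:100060046-100060088: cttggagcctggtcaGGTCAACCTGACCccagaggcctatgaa
Tprg region, chr16:25220731-25220773: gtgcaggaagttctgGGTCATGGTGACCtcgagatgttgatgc
Tacc1 region, chr8:25211946-25211988: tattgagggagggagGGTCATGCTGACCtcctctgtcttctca
Zcchc10 region, chr11:53314858-53314900: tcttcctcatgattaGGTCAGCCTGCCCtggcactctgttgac
Gm47910 region, chr10:33558222-33558264: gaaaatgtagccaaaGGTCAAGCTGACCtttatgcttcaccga
Gm38038 region, chr1:155844473-155844515: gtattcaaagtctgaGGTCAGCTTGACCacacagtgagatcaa
AC163635.1 region, chr17:29428456-29428498: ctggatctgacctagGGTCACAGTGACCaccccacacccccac
Gm11814 region, chr4:10390522-10390564: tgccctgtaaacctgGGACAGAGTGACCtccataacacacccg
Greb1 region, chr12:16760516-16760558: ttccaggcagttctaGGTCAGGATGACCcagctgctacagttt
Dkk3 region, chr7:112138416-112138458: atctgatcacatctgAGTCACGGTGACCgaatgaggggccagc

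The first 5 had the best mean ranks of the set by −log10 q, the next 3 were among the called regions that rose most with E2, and the last 2 lay near an E2 target gene (Greb1) and near a member of the WNT list (Dkk3). Of these 10 elements, those of the Zcchc10, Gm11814 and Dkk3 regions had 1 mismatch and the other 7 had none. Regions are named throughout by the gene of the nearest TSS, which labels a position and not a target.

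The set was spread over the genome away from promoters. The median region was 2296 bp wide (interquartile range 1755 to 3101 bp) and lay 18637 bp from the nearest TSS (8747 to 38865 bp), and 840 regions (17.5%) lay over 50 kb from any TSS. By the annotation at the strongest summit, 2426 regions (50.6%) were intronic, 2138 (44.6%) intergenic and 233 (4.86%) exonic. The X chromosome held 72 and the Y chromosome 0. Just inside the 3 kb limit were a region at Slit2, which encodes a secreted guidance ligand (chr5:47984802-47986954, 3018 bp), and one at Gm33091 (chr10:95138934-95140614, 3001 bp). Just outside it were regions at Mylk2 (chr2:152913167-152915102, 2999 bp) and Mos (chr4:3874635-3875379, 2998 bp).

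The 4797 regions had 3324 nearest genes, and 2424 of those genes had a single region. A few genes had many regions. The antisense gene 2610204G07Rik had 16 within 201 kb of chromosome 13, some of them inside Adamts6 and Cwc27. Bmper, which encodes a secreted regulator of bone morphogenetic proteins, also had 16, and Kcnma1, which encodes a calcium-activated potassium channel, had 13, all intronic. At Rad51b, a recombination gene, 10 regions had the gene as nearest, and 15 more had the neighbouring noncoding gene 9430078K24Rik. Palld, which encodes an actin-crosslinking protein, had 8, all within the gene, and Gm14003 had 8, 7 of them in introns of Fbn1, the gene of fibrillin-1. Sfrp1, which encodes a secreted WNT inhibitor, had 7. Regions at 1 locus did not share a strength: the 13 at Kcnma1 had mean ranks from 116 to 3923 of 4797, where 1 is the strongest.

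Strength was compared as a rank because the fold, p-value and q-value of a peak belong to its own list. In each library the 4797 regions were ranked by their best −log10 q, 1 being the strongest. The number of fragments at a summit could be recovered from the deposited fold and p-value. Its median over the regions was 24 to 31 in the vehicle and 30 to 31 in the fulvestrant libraries, 45 and 52 in the E2 libraries and 29 to 38 with E2 plus fulvestrant. The local background under the same peaks, as the peak caller scaled it, had medians of 7.02 to 8.27 fragments in the 10 libraries. Read depth was not in the lists, which held 34293 to 68971 peaks each in these libraries, so fragments are compared between treatments as they stand. Of the libraries that the rule left out, E2 replicate 1 had a median background of 2.74 and fulvestrant replicate 2 one of 5.85. Of the peaks of these libraries 59.4% and 27.9% were repeat-masked, against 5.57% to 7.79% in the 10 others.

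The regions with the best mean rank, chosen for it, stood at the front in each of the 10 libraries. The region at Gm33201 (chr6:100058305-100061262, intergenic, 68858 bp from a TSS) had rank 1 in 8 of the 10 libraries and rank 3 in fulvestrant replicates 1 and 3. Its summit held 286, 264 and 242 fragments in vehicle, 263 and 269 with fulvestrant, 423 and 441 with E2, and 325, 384 and 408 with E2 plus fulvestrant. The fragment counts were higher in all 5 libraries given E2, and a region already at rank 1 in vehicle had no room to rank better. Ranks were compared as normal scores. The normal score is the rank turned into a standard normal value with the strongest region highest. Its differences are given ± SE and are positive where the score was higher with E2. For E2 given against not given, the average of the E2 and E2 plus fulvestrant group means was set against that of vehicle and fulvestrant. Each group thus weighed the same, whatever its number of libraries. The regions at Tprg (chr16:25219855-25222704), at Tacc1 (chr8:25211131-25214762), near the gene of a coiled-coil protein of the spindle, and at Zcchc10 (chr11:53314178-53316327) ranked between 1 and 9 in every one of the 10 libraries. So did the region nearest to Gm47910 (chr10:33557418-33559483), in an intron of Clvs2, with ranks from 2 to 6. All 8 of the regions with the best mean rank had an ERE within 100 bp of the strongest summit, and in 5 of the 8 it had no mismatch. Ranked by fold enrichment instead of −log10 q, the mean rank went from 1.40 to 18.8 at Gm33201, to 13.1 at Zcchc10, from 4.65 to 8.45 at Gm47910 and from 2.80 to 1.10 at Tprg. That of the region nearest to Gm16150 went from 8.70 to 33.9.

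Across the whole set ranks were far less steady. The range of a region's rank percentile over the 10 libraries had a median of 54.4 points (interquartile range 41.7 to 66.0), and for the 342 regions with an ERE it was 37.7 points. Peaks of different libraries in 1 region also did not always share a summit. The best summits of the 10 libraries spread over a median of 798 bp, or 95.5 bp in regions with an ERE and 837 bp in the others. In 1251 regions (26.1%) every one of the 10 libraries had a summit within 250 bp of the strongest one. A peak in all libraries was therefore in many regions a peak somewhere in the same merged stretch and not at the same base.

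The ERE was concentrated at the summits of the strong regions. It was present in 342 of the 4797 (7.13%, Wilson 95% interval 6.43% to 7.89%), against 0.521% of windows of the same size centred 2 kb upstream of the same summits, 1.42% at the regions near a TSS and 1.42% at all merged distal regions. Of the 183243 merged distal regions, 92788 had a peak in none of the 10 libraries and came only from E2 replicate 1 or fulvestrant replicate 2. Distal regions with a peak in 1 to 3 of the 10 libraries had an ERE in 1.35%, and those with a peak in 9 had it in 3.99%. An ERE without mismatch was found at 92 members (1.92%) and in 0 of the 4797 upstream windows (upper limit 0.0800%). With the members ordered by mean rank and cut into 10 equal bins, the first bin had an ERE in 36.2% of its regions, the next in 12.9% and the last in 0.833%. These shares cover counting error only, and they describe ranks and summits drawn from the same peaks.

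**Figure D1:**
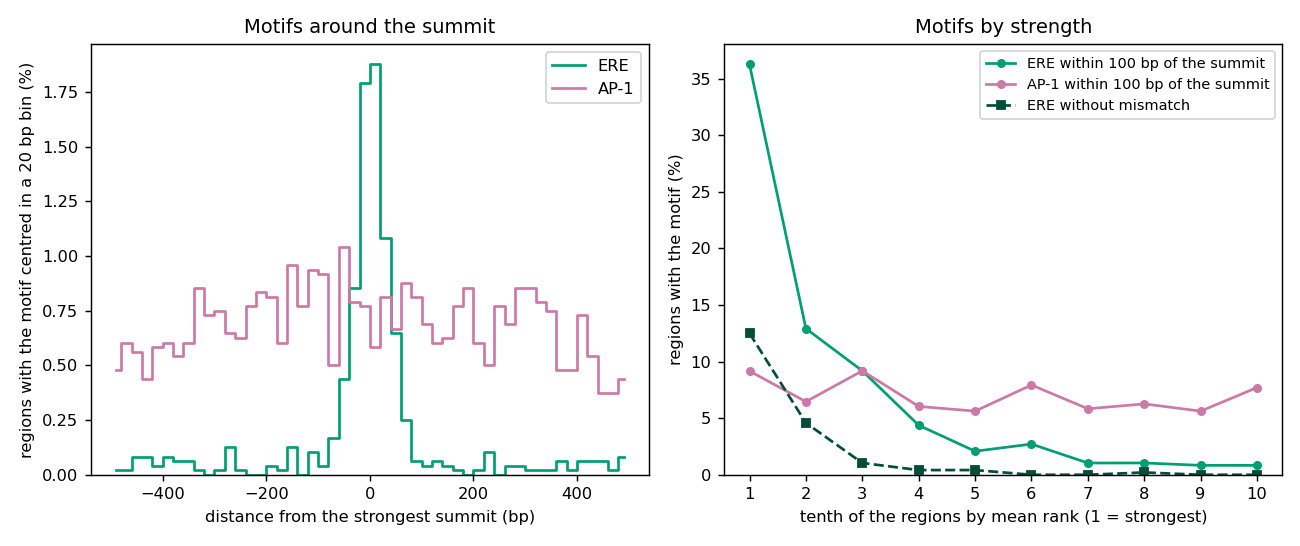
Left, percentage of the 4797 regions with an ERE or an AP-1 site centred in each 20 bp bin around the strongest summit, by distance in bp; right, percentage of regions with each motif in 10 equal bins of the set ordered by mean rank, 1 being the strongest bin. The ERE line peaks at the summit and falls from 36.2% to 0.833% over the bins, while the AP-1 line has no such peak and stays between 5.62% and 9.19%.

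AP-1 sites (TGACTCA or its complement TGAGTCA) were found at 335 regions (6.98%), against 3.65% of the upstream windows, 2.03% of the constant regions near a TSS and 3.99% of all merged distal regions. The plot of motifs around the summit shows that they were not centred on it: the bins touching the summit held an AP-1 site in 0.771% and 0.584% of regions, and bins 100 to 120 bp away in 0.938% and 0.688%. The corresponding values for the ERE were 1.79% and 1.88% at the summit and 0.104% and 0.0417% further out. TEAD sites (GGAATG) were at 15.3% of regions, 11.8% of upstream windows and 11.2% of all merged distal regions. RUNX sites (TGTGGTT) were at 5.59%, 4.65% and 4.16%, and forkhead sites (TGTTTAC) at 3.65%, 2.98% and 2.38%. Distal regions with a peak in 9 of the 10 libraries had AP-1 sites in 8.44%, TEAD in 15.2%, RUNX in 5.34% and forkhead in 3.72%. These 4 shares were thus not particular to the members. With a peak in 1 to 3 of the 10 libraries they were 5.92%, 12.6%, 5.31% and 3.04%. PLAG-type sites were at 7.34%, 4.61% and 6.02%, and at 27.2% of the constant regions near a TSS. Among the 4294 members whose strongest summit came from 1 of the 10 libraries, the PLAG-type share was 4.98%. This lay below the 6.02% of all merged distal regions and the 6.54% of those with a peak in 9 of the 10 libraries. It lay above the 4.49% of those with a peak in 1 to 3. The other motifs were rare. Glucocorticoid response elements were at 29 regions (0.605%, against 0.384% of all merged distal regions), CTCF sites at 6 (0.125% and 0.223%), CRE sites (TGACGTCA) at 5 (0.104% and 0.234%) and NFI sites (TTGGC, any 5 bases, GCCAA) at 3 (0.0625% and 0.0218%). In distal regions with a peak in 9 of the 10 libraries these shares were 0.813%, 0.0774%, 0.0774% and 0%. All motifs were searched on both strands, the ERE arm TGACC shares its 4 opening letters with TGACTCA, and 34 regions held both an ERE and an AP-1 site.

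The first comparison asked whether E2 changed the order of strength within the set. Regions with EREs moved toward the front when E2 had been given, with or without fulvestrant. Ranks of all 12029 constant regions, distal and TSS-proximal ranked separately, were turned into normal scores and fitted together in limma with the 4 treatments as groups. Over that fit 1.78% of regions passed an adjusted p of 0.05 with E2 given against not given. Among the distal members 123 (2.56%) did: 103 were called higher and 20 lower. At an unadjusted p of 0.05 there were 1304 (27.2%). In an exact permutation test per region the smallest p that the 252 arrangements of 5 against 5 libraries allow is 0.00794, 442 members were at it, and 0 passed after adjustment over the 12029 regions (smallest adjusted p 0.157). A region could pass this adjustment only if many others stood at the same smallest p, so the test could not call single regions.

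The libraries of the E2 contrast did not overlap in 280 members (5.84%) that were stronger in all 5 libraries given E2, against 3.39% of all constant regions, and in 162 (3.38%) that were weaker in all 5, against 1.65%. The count of calls depended on single libraries. It fell from 123 to 1 without E2 replicate 2, to 24 without E2 replicate 3, to 27 without fulvestrant replicate 3, to 31 and 37 without E2 plus fulvestrant replicates 2 and 3, and to 63, 67 and 74 without vehicle replicate 2, fulvestrant replicate 1 and vehicle replicate 1. The split of higher and lower calls depended on what the ranks were relative to. Of the calls 83.7% were higher in the ranking within the distal class, 97.9% when distal and proximal regions were ranked together, 97.7% on centred log2 fold enrichment and 98.2% on centred log2 summit fragments. It was 65.4% among regions with a median −log10 q of at least 10, and 41.1% where only peaks within 250 bp of the strongest summit were ranked.

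**Figure D2:**
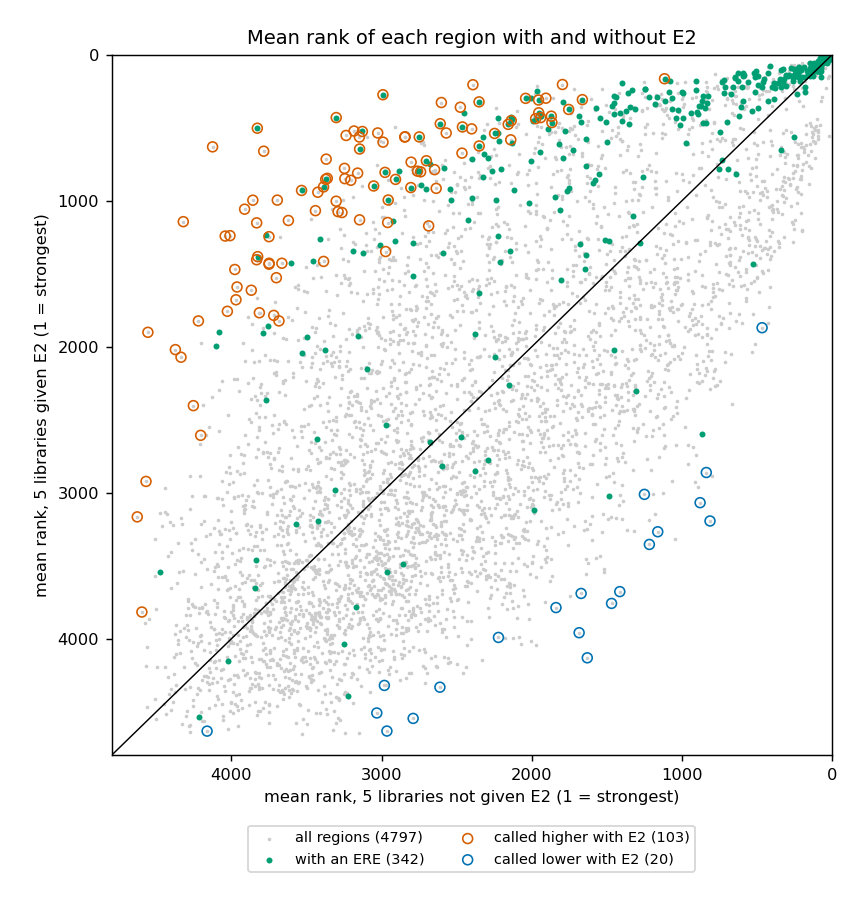
Mean rank of each of the 4797 regions in the 5 libraries given E2 against the 5 not given E2, with rank 1 at the upper right and the line of equal rank drawn in black. Regions with an ERE (green) lie mostly above the line, the 103 called higher are circled in orange and the 20 called lower in blue.

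The 103 regions called higher had a median mean rank of 849 with E2 and 3183 without, and medians of 64.6 and 24.4 summit fragments. Those called lower moved from 1651 without E2 to 3771 with it, while their fragments went only from 30.6 to 25.6. Among the uncalled regions the median was 28.6 fragments without E2 and 39.1 with it, although the libraries overlapped, since E2 plus fulvestrant replicate 1 had a median of 29 over all members. An ERE was present at 33 of the 103 called higher (32.0%, 23.8% to 41.6%), at 0 of the 20 called lower (Wilson upper limit 16.1%), and at 309 (6.61%) of those not called. AP-1 sites were at 10.7% of the called higher, 0 of the 20 called lower and 6.93% of the rest, and RUNX sites at 12.6%, 0 and 5.46%. The Wilson upper limit of either 0 was also 16.1%, above the shares in the other groups. TEAD sites were at 15.5%, 20% and 15.3%, forkhead sites at 2.91%, 5% and 3.66%, and PLAG-type sites at 5.83%, 5% and 7.38%. Median GC content within 100 bp of the summit was 45.8% in the called higher and 53.0% in the called lower regions.

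Among the called members without overlap, the region nearest to Gm13070 rose most (chr4:149886534-149888035, intergenic, 16883 bp from a TSS). It ranked 4633.5, 3090 and 4184 in vehicle, 4688.5 and 4026.5 with fulvestrant, 284.5 and 884 with E2, and 363, 686 and 940 with E2 plus fulvestrant. The groups were far apart, and the difference in normal score was 2.48 ± 0.34 (SE, adjusted p = 0.00418 in limma with Benjamini-Hochberg adjustment). This region had no ERE but held a TEAD and a forkhead site, shown with the sites in capitals on the plus strand of mm10.

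Gm13070 region, TEAD, chr4:149887042-149887077: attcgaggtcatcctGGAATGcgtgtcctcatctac
Gm13070 region, forkhead, chr4:149887188-149887224: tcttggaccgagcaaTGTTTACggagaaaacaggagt

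The region nearest to Gm38038 (chr1:155843806-155844897, intronic in Gm37571) carried the ERE without mismatch shown above. It ranked 4027.5, 4735.5 and 4667.5 in vehicle, 4332.5 and 1370.5 with fulvestrant, 564 and 436.5 with E2, and 672, 500 and 347.5 with E2 plus fulvestrant. Fulvestrant replicate 3 stood apart from the other libraries without E2 and still lay behind all 5 libraries given E2 (difference 2.30 ± 0.37, adjusted p = 0.00918, limma). At AC163635.1 (chr17:29427680-29428956), whose ERE also had no mismatch, the 5 libraries given E2 lay between ranks 170 and 352 and the others between 1784.5 and 4401.5 (2.01 ± 0.34, adjusted p = 0.0112, limma). There the summit held 21 to 29 fragments without E2, 126 and 144 with E2, and 61, 90 and 106 with E2 plus fulvestrant.

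Other regions rose without any of the motifs searched. In an intron of Capn9, which encodes a calcium-dependent protease (chr8:124617441-124618774), ranks were 550 to 751 with E2 given and 3023.5 to 4535 without (1.95 ± 0.29, adjusted p = 0.0063, limma). In an intron of Dbh, the enzyme that makes noradrenaline from dopamine (chr2:27175449-27177087), they were 741 to 2148 and 3515 to 4615 (2.04 ± 0.27, adjusted p = 0.00386, limma). The regions nearest to Gm8689 (chr10:100263793-100264760) and to Gm18042 (chr10:58604024-58606074, in an intron of Edar, a receptor of the TNF receptor family) differed by 2.06 ± 0.32 and 1.86 ± 0.41. At Gm11814 (chr4:10389749-10391120), where the ERE has 1 mismatch, the difference was 1.84 ± 0.36.

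Of the 6 regions with the largest falls among those called without overlap, none held an ERE, AP-1, TEAD, RUNX, forkhead or PLAG-type site within 100 bp of the strongest summit. In an intron of Afap1, which encodes an actin filament-associated protein, the region nearest to H2af-ps (chr5:35920146-35921643) ranked 2734, 2130 and 1263 in vehicle and 1267.5 and 758 with fulvestrant. With E2 it ranked 4180 and 3528, and with E2 plus fulvestrant 4662, 4517 and 3761. The groups did not overlap (-1.66 ± 0.30, adjusted p = 0.0158, limma), although the summit fragments did, at 26 to 42 without E2 and 19 to 38 with it.

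A region in an intron of Col1a2, the gene of the alpha 2 chain of type I collagen, and nearest to Gm43921 (chr6:4527724-4531755), ranked 562 to 2143.5 without E2 and 2247 to 4372.5 with it. Its difference was -1.39 ± 0.32 (adjusted p = 0.0472, limma), with 25 to 36 fragments without E2 and 17 to 31 with it. The exonic region at Aknad1 (chr3:108780678-108783486) differed by -1.59 ± 0.27. Regions near Rcan2, a regulator of calcineurin (chr17:43784211-43786407), near Doc2b, a calcium sensor of exocytosis (chr11:75811643-75813449), and in an intron of Ttc7 (chr17:87301741-87303238) differed by -1.52 ± 0.34, -1.42 ± 0.33 and -1.40 ± 0.27. These falls were changes of order within the set, with few fragments behind each. Of the 16 named regions with a call, only 1 kept it without E2 replicate 2, 7 without E2 replicate 3, 7 without fulvestrant replicate 3 and 8 to 14 without any other library, and none changed sign.

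**Figure D3:**
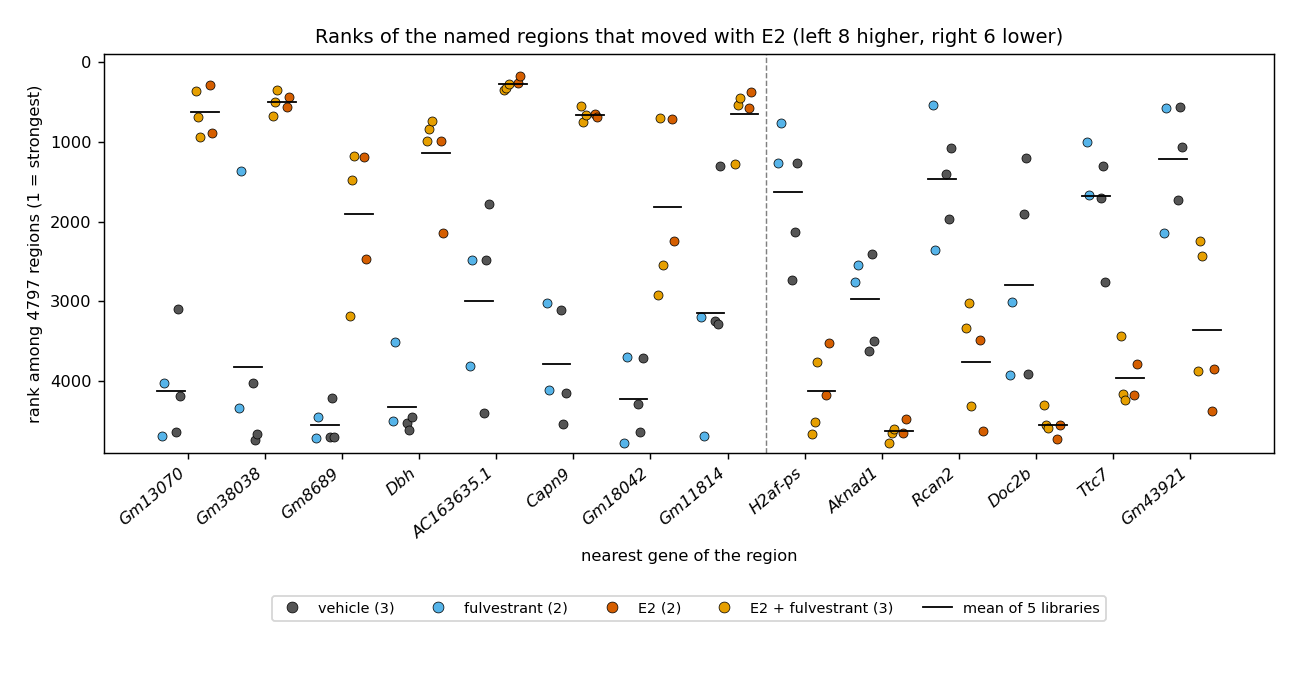
Rank of 14 named regions among the 4797 in each of the 10 libraries, 1 at the top, with the 8 largest rises on the left and the 6 largest falls on the right, among regions called without overlap of libraries. Points are libraries coloured by treatment and bars are means of 5 libraries; in all 14 the 5 libraries given E2 lie to 1 side of the 5 not given it, as the choice required.

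The next comparisons asked what each agent did on its own. E2 against vehicle gave 0 calls among the members in limma (0.0249% of all constant regions), with 701 at an unadjusted p of 0.05 and a smallest adjusted p of 0.0842. E2 plus fulvestrant against E2 gave 0 (0.00831% of all), with 195 unadjusted. Fulvestrant against vehicle gave 0 (0% of all), with 473 unadjusted and a smallest adjusted p of 0.0754. E2 plus fulvestrant against fulvestrant gave 1 call (0.0748% of all), with 854 unadjusted. The difference of the E2 effects with and without fulvestrant gave 0 (0% of all), with 248 unadjusted. No member was thus shown to respond to E2 differently when fulvestrant was present, at this number of libraries. Centred log2 fold enrichment gave more calls, 482 for E2 against vehicle and 575 for E2 plus fulvestrant against fulvestrant, and 4 each for E2 plus fulvestrant against E2 and for fulvestrant against vehicle.

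The 1 region called with E2 plus fulvestrant against fulvestrant was nearest to Gm12354 (chr4:19727878-19729146, intergenic, 8632 bp from a TSS). It ranked 4419.5 and 4376 with fulvestrant and 1103.5, 1258.5 and 890 with E2 plus fulvestrant, which did not overlap (2.14 ± 0.32, adjusted p = 0.0316, limma). In vehicle it ranked 2346.5, 1947 and 1774 and with E2 2017.5 and 1471.5, so vehicle and E2 overlapped. There was no call in this contrast when ranks came from the fold enrichment, with both left-out libraries added, or with the limit set at 1 kb from a TSS. Nor was there one without vehicle replicate 1 or 2, E2 replicate 2 or 3, E2 plus fulvestrant replicate 2 or 3, or fulvestrant replicate 3. Without vehicle replicate 3 there were 6 calls and without fulvestrant replicate 1 there were 3, all higher, and without E2 plus fulvestrant replicate 1 there was 1, which was lower. Its window held a RUNX site, in capitals.

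Gm12354 region, RUNX, chr4:19728594-19728630: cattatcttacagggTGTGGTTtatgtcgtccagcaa

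For the 103 regions called higher with E2 given, the median difference was 1.32 for E2 against vehicle and 1.59 for E2 plus fulvestrant against fulvestrant, and -0.03 for E2 plus fulvestrant against E2. These contrasts share libraries with the one that chose the 103, so the values are descriptive. Over all members the libraries given E2 were on average the most alike. Spearman's rho over the 4797 regions averaged 0.732 between libraries that both had E2 (0.626 to 0.805, 10 pairs), 0.576 between those that both lacked it (0.516 to 0.634, 10 pairs) and 0.517 between a library with and a library without (0.420 to 0.635, 25 pairs). All of these ranges overlapped. Vehicle replicate 3 was closest to E2 replicate 3 (0.601). E2 plus fulvestrant replicate 1 had 0.635 with fulvestrant replicate 1 and 0.626 with E2 plus fulvestrant replicate 3. E2 libraries and E2 plus fulvestrant libraries had a mean of 0.736 (6 pairs), and vehicle and fulvestrant libraries one of 0.571 (6 pairs).

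**Figure D4:**
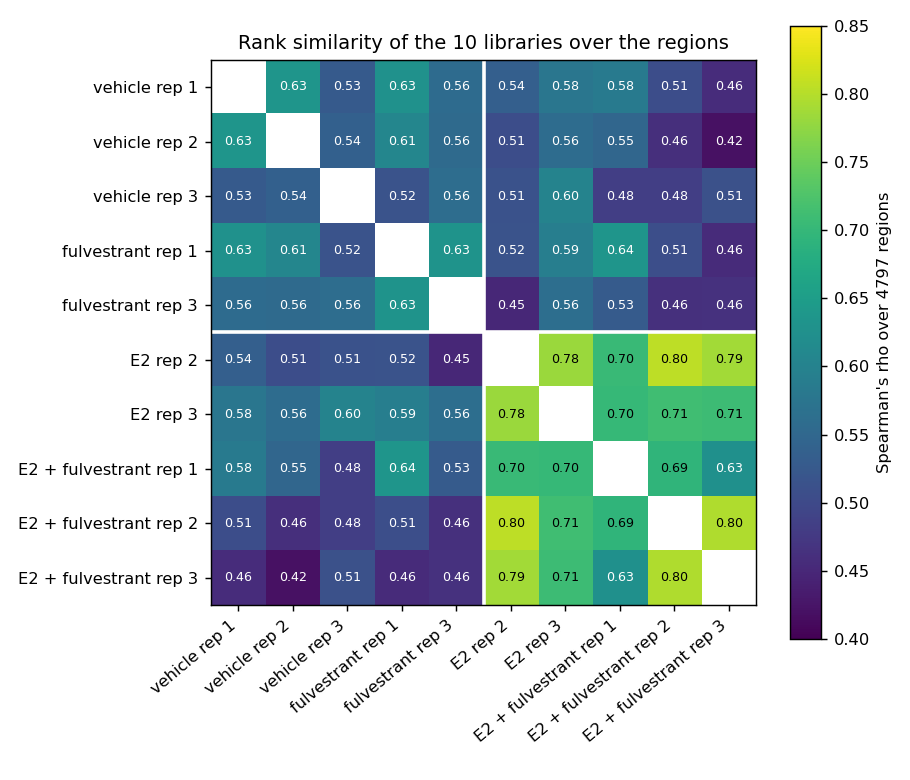
Spearman's rho of the −log10 q of the 4797 regions between each pair of the 10 libraries, with the 5 libraries not given E2 first and white lines between both blocks. Pairs within the block given E2 lie between 0.626 and 0.805, and pairs across the blocks lie between 0.420 and 0.635.

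Regions with an ERE moved as a group. Their median rank percentile, where 0 is the strongest, was 16.0, 18.4 and 14.4 in vehicle and 20.9 and 16.3 with fulvestrant. It was 6.49 and 7.06 with E2 and 7.47, 6.63 and 6.82 with E2 plus fulvestrant. All 5 libraries given E2 lay ahead of all 5 others, with means of 6.89 ± 0.38 and 17.2 ± 2.51 (SD, n = 5 and 5). The difference in normal score was positive in 292 of the 342 (85.4%), 86 did not overlap upward and 0 downward, and 33 were called higher and 0 lower. Over all 4797 members 46.4% were positive, 5.84% did not overlap upward and 3.38% downward, and 103 were called higher and 20 lower. The 250 regions whose ERE had 1 mismatch stood at 7.90 with E2 and 21.5 without. The 92 with a perfect ERE were near the front in either state (5.57 with E2, 9.02 without), and there the libraries overlapped. In normal score the subsets were closer, with median differences of 0.50 and 0.36, of which 86.4% and 82.6% were positive, and with 10% and 8.7% called.

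The strongest summit came from 1 of the 5 libraries given E2 in 85.6% of members and in 97.4% of those with an ERE. In 503 members (10.5%) it came from E2 replicate 1 or fulvestrant replicate 2, which the rule left out. In 3.94% it came from the 5 libraries not given E2. The search for motifs was thus itself centred mostly by E2 libraries. When the summit was taken only from the 5 libraries not given E2, 310 members (6.46%) had an ERE, 292 of them among the same 342. Their median percentile was 6.14 ± 0.20 with E2 and 14.5 ± 2.37 without, again with no overlap. Among the 200 strongest regions of each library an ERE was present in 60.5% to 62.5% with E2 and 41.5% to 48.0% without. The ERE lay at a median of 20 to 23 bp from the library's own best summit in the 5 libraries given E2 and at 30 to 34 bp in the other 5, and within 100 bp of it in 91.2% to 95.3% and in 80.7% to 83.9% of the 342.

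**Figure D5:**
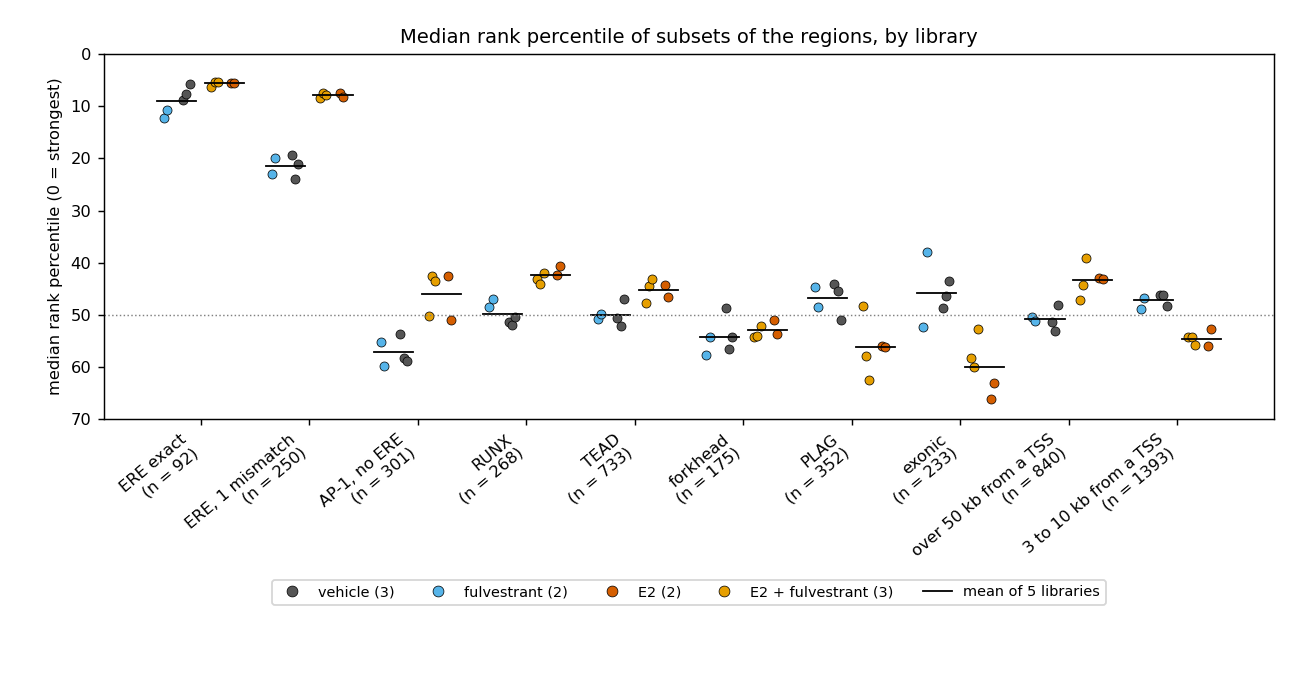
Median rank percentile of subsets of the 4797 regions in each of the 10 libraries, 0 (strongest) at the top, coloured by treatment, with bars for the mean of 5 libraries. Regions with an ERE or an AP-1 site are ahead with E2, and PLAG-type, exonic and TSS-near regions are behind.

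Regions with AP-1 sites also ranked ahead with E2. Their median percentile was 41.1 ± 4.97 with E2 given and 53.5 ± 2.57 without, with no overlap of libraries, and it was 46.0 and 57.2 in the 301 that held no ERE. With the summit from libraries not given E2, only 219 members (4.57%) had an AP-1 site, with 36.9 and 52.8. RUNX members stood at 42.4 ± 1.30 and 49.8 ± 2.03, without overlap. TEAD members (45.2 and 50.1) and forkhead members (53.0 and 54.3) overlapped between libraries. PLAG-type members went the other way, 56.2 ± 5.08 with E2 and 46.8 ± 2.92 without, and overlapped. The 29 regions with a glucocorticoid response element (41.0 and 53.6) overlapped too. The 4154 regions with neither an ERE nor an AP-1 site stood at 53.6 and 51.6. Within a set of ranks a rise of some members is a fall of others, so these values are relative to each other.

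Ranks also moved with position. The 840 regions over 50 kb from a TSS ranked ahead with E2 (43.3 ± 2.94 against 50.8 ± 1.84), and the 1393 between 3 and 10 kb ranked behind (54.6 ± 1.41 against 47.3 ± 1.27). The 233 exonic regions stood at 60.0 ± 5.07 with E2 and 45.8 ± 5.44 without, the intergenic at 45.1 and 48.0, and the 258 repeat-masked at 60.9 and 51.5. In these 5 subsets the libraries did not overlap, and intronic regions (53.2 and 52.2) did. GC content moved with them: the median was 44.5% over 50 kb from a TSS, 50.7% within 10 kb and 56.2% in exonic regions. Spearman's rho between strength and GC content over the members was -0.171 to 0.039 in the libraries given E2 and 0.029 to 0.150 in the others. Without the ERE members it was -0.155 to 0.075 and 0.058 to 0.184. The part of GC content in these shifts was not tested.

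Genes with a known part in ESR1 action or in fibroblasts were looked up in 10 lists. A region counted for a listed gene only when that gene had the nearest TSS, noncoding genes included. Only 41.9% of members had a protein-coding nearest gene, so a region inside a listed gene could be counted elsewhere. Of 12 known E2 targets and genes the study names, 4 had a member (among them Adamts6, Ccn3 and Greb1), 6 regions in all, and 0 were called. Greb1, a growth gene induced by estrogen in many tissues, had a region in its own intron, 3288 bp from a TSS (chr12:16760253-16760831), with the perfect ERE shown above. It ranked 1020.5, 1180 and 1547.5 in vehicle, 1557 and 2195.5 with fulvestrant, 486.5 and 1083 with E2, and 416.5, 525.5 and 489 with E2 plus fulvestrant. E2 replicate 3 lay among the vehicle libraries, and the difference of 0.69 ± 0.24 did not pass (adjusted p = 0.189, limma). No member was nearest to Pgr, the progesterone receptor gene.

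Of 19 steroid receptors and coregulators 5 had members (among them Esr1, Meis2 and Ncoa3), 9 regions with 0 called. The strongest lay 20821 bp from a TSS of Esr1 itself (chr10:4590562-4592514), with ranks 64, 69 and 45 in vehicle, 314.5 and 157 with fulvestrant, 74 and 97 with E2 and 131, 86 and 170 with E2 plus fulvestrant. It held no ERE, and the groups overlapped (0.06 ± 0.23, adjusted p = 0.953, limma).

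Matrix genes had the most members of the lists. Of 26 genes 14 had 24 regions, 1 called higher and 0 lower. The called region was nearest to Vcan, the gene of the proteoglycan versican, 86287 bp away and in an exon of Gm4117 (chr13:89828516-89829352). It ranked 852 to 1433.5 with E2 given and 2325 to 4700 without (1.47 ± 0.30, adjusted p = 0.0292, limma). Of the other 23 regions 12 had positive differences. Counts by nearest TSS leave out the region called lower in an intron of Col1a2, which was nearest to Gm43921. They also leave out the 8 regions nearest to Gm14003, 7 of them in introns of Fbn1, and 1 of these 8 was called. Of 19 fibroblast genes 10 had 16 regions and 0 calls. The best-ranked of them, near Vim, the gene of the intermediate filament vimentin, stood at a mean rank of 886 with E2 and 278 without (-0.77 ± 0.27, adjusted p = 0.189, limma), and its summit window was wholly repeat-masked.

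Signalling lists had 0 calls. Of all members 46.4% had a positive difference. In the TGF-beta list 6 of 20 genes had 11 regions, 2 with a positive difference, and the best-ranked, in an intron of the receptor gene Tgfbr2, differed by -0.32 ± 0.29. In the WNT list 12 of 24 genes had 22 regions, and the best-ranked was the Dkk3 region shown above, with mean ranks of 169 with E2 and 452 without (0.44 ± 0.26, adjusted p = 0.484, limma). All 7 Sfrp1 regions had positive differences, which was noticed after their values were seen, and 0 were called. The Fos and Jun list had 3 regions at 2 of 14 genes (the best-ranked at Maff, -0.44 ± 0.32), the YAP and TEAD list 4 at 3 of 12 (Ccn1, -0.21 ± 0.58), and the cell cycle list 4 at 2 of 12 (Cdc7, a kinase of replication origins, 0.92 ± 0.32, adjusted p = 0.185, limma). Markers of other cell types had 4 regions at 3 of 17 genes, the best-ranked near the mural cell gene Rgs5 (0.63 ± 0.39). All lists other than the matrix list had 0 calls in limma, where 2.56% of all members were called, and each held 3 to 22 regions.

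The distal set as a whole also moved against the constant regions near a TSS. When all 12029 constant regions were ranked together, the median percentile of the distal members was 62.0 to 67.4 in the 5 libraries not given E2 and 45.0 to 63.3 in those given it. The means were 64.7 ± 2.01 and 53.5 ± 7.05 (SD, n = 5 and 5), and E2 plus fulvestrant replicate 1 (63.3) overlapped vehicle replicate 3 (62.0). On centred log2 fold enrichment the median difference with E2 was 0.08 for distal and -0.10 for TSS-proximal regions, and 61.0% of distal against 27.2% of proximal regions had a positive difference. This is a shift between classes that the ranking within classes removes.

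Presence and rank in the libraries that the rule left out were not used by it, although their lists entered the merge and the choice of the strongest summit. E2 replicate 1 had a peak in 36.8% of members (35.4% to 38.1%) and in 85.7% of the constant regions near a TSS. Fulvestrant replicate 2 had a peak in 69.1% (67.8% to 70.4%) and in 97.1%. The EREs did not stand forward in E2 replicate 1, and in fulvestrant replicate 2 they stood less far forward than in the 10 others. The median rank percentile of ERE regions among members with a peak stood at 59.0 for E2 replicate 1 and at 42.7 for fulvestrant replicate 2. An ERE was present in 6.5% and 17.5% of their 200 strongest members, and in 145 of 1764 and 230 of 3315 of all their members with a peak. With both libraries added, over the 1626 members with a peak in all 12, 3 regions were called higher with E2 and 0 lower. The part of the lower background and the repeat-masked peaks of these libraries in their difference was not tested.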

How the data were processed

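ESR1 ChIP-Seq was measured in 12 libraries (input not analysed here). The authors had mapped reads to mm10 using Bowtie2 after Trimmomatic 0.39, had dropped duplicates by Picard 2.21.4 and had run MACS2 on each library. For each peak the deposited lists gave the fold enrichment at the summit (a ratio), the −log10 p-value and −log10 q-value, and a score. The authors' score was not used, and all these values were relative to 1 library. The study filtered blacklisted peaks, but whether the deposited lists precede that step was not given in the sources used here. Fold and p-value together gave whole fragment numbers (within 0.001 of −log10 p) for 100% of 138591 peaks. Counts per region across libraries were not used here, so the study's count model was replaced by ranks.

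Ranks of −log10 q within each class became normal scores, fitted with limma 3.58.1 (4 groups, 10 libraries, 2-sided, Benjamini-Hochberg over 12029 regions), and the code was tested on simulated data. Members were named by mean rank, by size of the E2 difference among called regions without overlap and with at most 50% repeat-masked bases, and by list. The members, lists and naming rule were chosen with earlier results of these data known. Wilson intervals cover counting error only. Libraries were not paired by replicate number in the fit. Sequences came from the RefSeq GRCm38.p6 genome. Alternatives were other ranking columns and values, peak thresholds, TSS distances, a replicate block and leaving out each library. Some members of the gene lists are not reported here by name.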

Additional observations from a re-analysis of the deposited data

Results flagged for a closer look

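In 5 of 50 sets of 5 libraries examined, a library lay far from the other 4, measured as its gap to the nearest over the whole range, and chance marks about 1 set in 20. Among regions with a perfect ERE, the median rank percentile of E2 plus fulvestrant replicate 1 was 6.26, and the next highest of the libraries given E2 was 5.51. At the region nearest to Gm11814 the same library ranked it 1278, against 579 or better in the other 4 given E2. At the Dbh region E2 replicate 3 had rank 2148 and the next 995. Fulvestrant replicate 3 ranked the Dbh region 3515 and the Gm38038 region 1370 (1370.5 before rounding), where the nearest other libraries without E2 ranked them 4446.5 and 4027.5. In both regions the groups still did not overlap.

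The libraries left out by the rule held a peak in 36.8% (E2 replicate 1) and 69.1% (fulvestrant replicate 2) of the members, which is data outside the comparisons of ranks.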

How the results depend on the processing

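The number of constant distal regions was 1626 with a peak asked of all 12 libraries and 3686 with q of at most 0.05. It was 986 with peaks of −log10 q of at least 5 and 1251 with all summits within 250 bp. When any 1 of the 10 libraries was not asked it was 4804 to 5599. Calls with E2 given against not given, 123 in the main fit, were 614 with 1 ranking over distal and proximal regions, 923 on centred log2 fold, 1010 on centred log2 fragments, 217 with a median −log10 q of at least 10, 3 with both left-out libraries added, 0 by exact permutation and 1 to 115 with a library left out. For E2 against vehicle, 0 became 45 with 1 ranking, 482 on log2 fold, 385 on log2 fragments, 1 with q of at most 0.05, 16 with the median −log10 q limit and 0 to 1 with a library left out. For E2 plus fulvestrant against E2, 0 became 4 on log2 fold, 2 on log2 fragments and 1 over 1 kb from a TSS, and stayed 0 with each library left out. For fulvestrant against vehicle, 0 became 2 with 1 ranking, 4 on log2 fold, 3 on log2 fragments, 3 with q of at most 0.05, 6 with the median −log10 q limit and 5 with peaks within 250 bp, and stayed 0 with each library left out, as did the calls for the difference of E2 effects. For E2 plus fulvestrant against fulvestrant, 1 became 0 by fold rank, with both left-out libraries and over 1 kb from a TSS, 2 with peaks within 250 bp, 13 over 10 kb, 15 with q of at most 0.05, 49 with the median −log10 q limit, 144 with 1 ranking, 575 on log2 fold, 677 on log2 fragments and 0 to 6 with a library left out. The cause of these changes was not tested. The exact test was not run for contrasts other than 5 against 5 libraries, and there its smallest possible p kept single regions from passing the adjustment. The ERE share was 5.88% within 50 bp and 1.92% without mismatch. The ERE percentile difference, -10.3 points, was -7.33 by fold rank, -8.00 within 50 bp, -8.33 with summits of libraries not given E2, and -11.0 to -9.39 with a library left out; that of the distal class ran from -13.7 to -9.08. The calls turned mostly lower in 2 settings: with E2 given, 37 higher and 53 lower with peaks within 250 bp, and for E2 plus fulvestrant against fulvestrant 0 higher and 1 lower without E2 plus fulvestrant replicate 1. None of the 16 named called regions changed sign in any setting.

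The replicate numbers were checked for pairing. Deviations from the group means of same-numbered libraries correlated at -0.054 to 0.195, over 0.1 in 6 of 12 pairs against 2 of 25 with other numbers, and 7 of 10 libraries matched best with a library of their own number. With the number as a block, 33 regions were called with E2 given (30 higher, 3 lower), 9 of the 16 named regions kept their call, and 0 with E2 plus fulvestrant against fulvestrant. Peak summits of about 20 to 60 fragments limit what a rank can resolve. The merge over the 10 lists, the 250 bp limit, the fragment values and the summits of libraries with or without E2 were added after seeing the data.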
